A study of Mus musculus with 12 samples.

Results

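Skeletal muscle contractile and metabolic genes were followed in full-thickness mouse skin. The set was a list of 45 symbols naming sarcomere, calcium handling and muscle energy genes, and all 45 were found among the 52636 genes of the deposited count table by their Ensembl identifiers. It was divided into 14 members of the fast fibre programme, 6 of the slow programme, and 25 used by both fibre types, of which 14 belong to the sarcomere and Z-disc, 4 to calcium handling and 7 to muscle energy.

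RNA-seq was performed on 12 libraries of dorsal skin from C57BL/6 mice (C57BL/6J in the study's methods) aged 3 months, with 3 mice in each of 4 groups. WT mice were wild type and received the control treatment, and Cdc42 KO mice lacked this small GTPase where Cre was driven by the keratin 5 promoter, which is active in basal keratinocytes. Mice of the other groups, WT+ZnO NPs for wild type and KO+ZnO NPs for knockout, received zinc oxide nanoparticles on the shaved back, and by the study's methods the skin was taken after 14 days, with saline containing a cellulose thickener as the vehicle in every group. Total counts ran from 21076320 to 28867802 per library.

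Mouse back skin carries a thin sheet of striated muscle below its fat, the panniculus carnosus, which is made almost wholly of fast fibres. Muscle fibres contract when myosin heavy chains pull on actin filaments, and calcium released from the sarcoplasmic reticulum frees those filaments through troponin and tropomyosin. Fast and slow fibres use separate genes for myosin heavy and light chains and for troponin, while creatine kinase, glycolysis and myoglobin supply energy and oxygen. In bulk skin, fewer muscle cells in a piece and less RNA per muscle cell cannot be told apart.

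The libraries carried marks that went against their labels. Cdc42 was at 606 to 628 CPM (counts scaled to a library total of 1000000) in WT, at 415 to 464 CPM in KO, at 314 to 453 CPM in KO+ZnO NPs and at 311 to 350 CPM in the WT+ZnO NPs-labelled libraries, which therefore held less Cdc42 than the KO libraries did. Y-linked transcripts summed to between 214.8 and 244.6 CPM in all 3 WT+ZnO NPs-labelled libraries, in KO replicate 1 and in KO+ZnO NPs replicate 1, and to under 0.05 CPM in the other 7, whereas the methods describe female KO mice. Every direction given below that involves the WT+ZnO NPs-labelled libraries rests on that label. All 3 WT libraries lacked Y-linked transcripts and all 3 WT+ZnO NPs-labelled libraries had them, so between these groups the ZnO NPs difference and a difference of sex cannot be told apart. A fit with Y-linked transcripts as a covariate takes its estimate almost wholly from KO replicate 1 and KO+ZnO NPs replicate 1.

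The muscle genes move together over these libraries, so the sequences before the start sites of 4 of them are shown first. Myh1, Myh2 and Myh4, which encode the IIx, IIa and IIb fast myosin heavy chains, lie side by side on chromosome 11, and Acta1 encodes skeletal actin. Of the 45 members, 34 had a RefSeq promoter in build GRCm38.p6, and 4 motifs were searched in the 250 bases before the start. These were the E-box bound by myogenic factors (the palindrome CAGCTG, or CACCTG on either strand), the MEF2 site and the CArG box of serum response factor on either strand, and the TATA box in the sense direction (TATAAA). Capitals mark every match, and no motif overlapped another in these windows. The windows printed were chr11:67199852-67200101 for Myh1, chr11:67170777-67171026 for Myh2 and chr11:67237562-67237811 for Myh4, all on the plus strand, and chr8:123894776-123895025 on the minus strand for Acta1. They end at the RefSeq start sites, whereas the gene spans given with the results are those of GENCODE M21, whose starts can differ, as those of Myh1, Myh4 and Acta1 do.
Myh1: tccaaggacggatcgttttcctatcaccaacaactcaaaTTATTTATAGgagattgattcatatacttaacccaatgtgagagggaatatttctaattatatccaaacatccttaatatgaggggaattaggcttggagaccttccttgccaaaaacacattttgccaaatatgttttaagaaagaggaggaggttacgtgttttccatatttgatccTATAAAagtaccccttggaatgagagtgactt
Myh2: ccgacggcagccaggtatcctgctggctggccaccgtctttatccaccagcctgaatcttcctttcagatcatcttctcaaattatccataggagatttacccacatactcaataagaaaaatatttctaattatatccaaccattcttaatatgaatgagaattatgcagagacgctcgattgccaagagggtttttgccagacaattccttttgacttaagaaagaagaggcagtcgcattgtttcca
Myh4: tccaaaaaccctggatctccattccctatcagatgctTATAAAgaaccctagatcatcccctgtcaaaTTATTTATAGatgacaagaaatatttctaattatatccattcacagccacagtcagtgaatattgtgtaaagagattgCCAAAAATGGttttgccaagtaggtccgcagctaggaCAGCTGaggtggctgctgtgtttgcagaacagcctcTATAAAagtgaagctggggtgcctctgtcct
Acta1: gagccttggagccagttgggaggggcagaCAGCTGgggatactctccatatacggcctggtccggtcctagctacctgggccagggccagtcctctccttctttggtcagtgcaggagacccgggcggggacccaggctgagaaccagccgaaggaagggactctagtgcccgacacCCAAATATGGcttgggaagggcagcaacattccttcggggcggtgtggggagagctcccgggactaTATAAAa

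Myh1 and Myh4 held the same MEF2 letters, TTATTTATAG, at 211 and 182 bases before the start, and Myh2 held no match to any of the 4 motifs in its window. Myh4 also held a CArG box, CCAAAAATGG, at 104 bases and an E-box at 67 bases, and Acta1 held a CArG box, CCAAATATGG, at 73 bases. An E-box stood in 23 of the 34 windows (67.6%), against 30.6% of the windows of 27025 genes. The MEF2 site stood in 6 windows (17.6%, against 3.42%), the CArG box in 5 (14.7%, against 1.62%) and the TATA box in 4 (11.8%, against 8.94%). These are matches of letters only. The 4 members with almost no counts, Myh7, Myl2, Myl3 and Tnnc2, each held an E-box too.

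The skin libraries carried the fast programme and almost none of the slow one. Myh7, the slow myosin heavy chain, had between 0 and 3 counts in every library. Scaled by exon length, its share of the summed Myh1, Myh2, Myh4 and Myh7 counts was highest in KO replicate 3, at 0.0065% from 2 counts. The lowest limit that 3 counts would allow was 0.00117% and the highest 0.0139%. As 3 was also the highest Myh7 count in any library, no share could rise above its limit. The ZnO NPs libraries had a mean share of 0.000195% and the vehicle libraries of 0.00139% (two-sided exact permutation test, 6 against 6, p = 0.455). These rest on 6 counts of Myh7 in 3 of the 12 libraries, so only a slow share above the limits given here could have been told from 0, and a difference of smaller shares was out of reach.

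Troponin showed the same contrast on a per-length scale. Tnnt3, fast troponin T, averaged 644.4 CPM per kb over the 12 libraries and slow Tnnt1 averaged 1.47. Tnni2, the fast inhibitory subunit, averaged 420.5 CPM per kb and slow Tnni1 averaged 0.448. The regulatory and alkali light chains of fast myosin, Mylpf and Myl1, averaged 565.7 and 283.3 CPM per kb, and their slow counterparts Myl2 and Myl3 averaged 0.0652 and 0.127. Tnnc2, fast troponin C, was the exception among the fast genes, with 0 to 4 counts in any library. Its locus, chr2:164777161-164779967 on the minus strand, shares 74.0% of its exonic bases with exons of Ube2c, and the part of that overlap in its count was not tested. No other member shared over 50% of its exonic bases. Mb followed with 31.9% and Atp2a1 with 21.9%.

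Acta1 was the most abundant member on the per-length scale, at 2056 CPM per kb. Its level was 2410, 1990 and 2470 CPM in WT, 7261, 2315 and 3884 CPM in the WT+ZnO NPs-labelled libraries, 2059, 589.6 and 1043 CPM in KO, and 1115, 5938 and 6823 CPM in KO+ZnO NPs. The WT libraries lay close together, and each of the other groups held a library well apart from its neighbours.

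**Figure D1:**
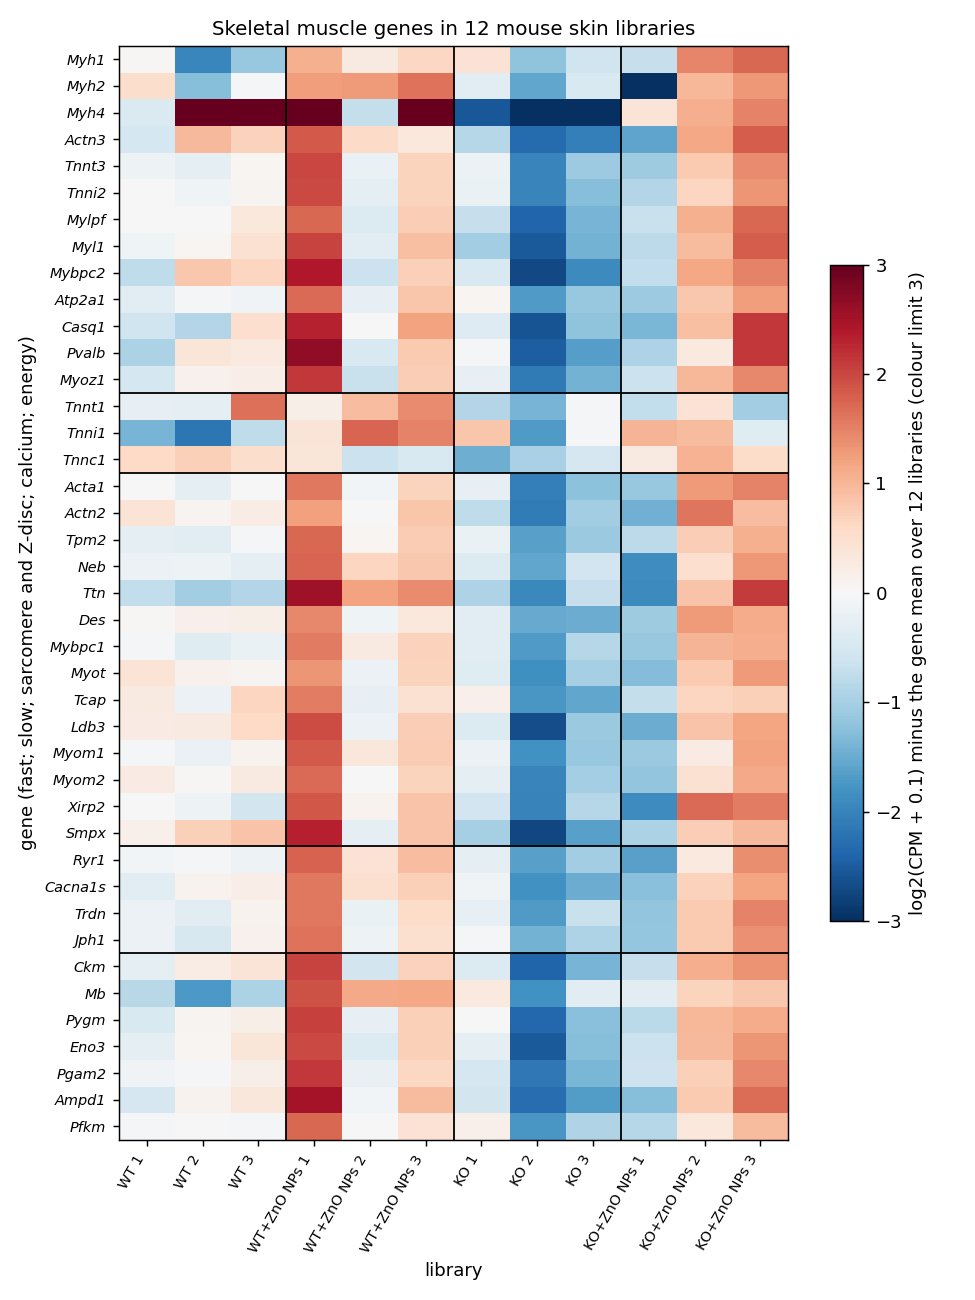
Each row is a tested gene and each column a library; colour gives log2(CPM + 0.1) minus the gene's mean over 12 libraries, with rows grouped into fast, slow, sarcomere and Z-disc, calcium and energy genes. Most rows share 1 pattern, high in WT+ZnO NPs 1, KO+ZnO NPs 2 and KO+ZnO NPs 3 and low in KO 2, and the 3 slow genes depart from it. Among the abundant genes Myh4, Myh2, Myh1, Mb and Ttn stray furthest from the common level. Mb and Ttn are still highest in WT+ZnO NPs 1 and lowest in KO 2.

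The same libraries were high or low for nearly the whole set. The 45 genes together took 1.16%, 1.16% and 1.33% of all counts in WT, 4.79%, 1.33% and 2.45% in the WT+ZnO NPs-labelled libraries, 1.08%, 0.334% and 0.6% in KO, and 0.632%, 2.33% and 3.38% in KO+ZnO NPs. The highest library thus belonged to the group labelled WT+ZnO NPs and the lowest to KO, and replicate 1 of KO+ZnO NPs fell among the KO libraries. It and KO replicate 1, the highest KO library, were the only libraries of the knockout groups with Y-linked transcripts. Sex and other features of these libraries cannot be told apart. The mean log2 CPM of the 38 members whose own mean exceeded 2 ran from 5.33 in KO replicate 2 to 9.45 in replicate 1 labelled WT+ZnO NPs.

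Of the 45 members, 41 had enough counts to be tested, and Tnnc2, Myh7, Myl2 and Myl3 did not. The 38 abundant members varied with a median SD of 1.15 on the log2 scale over the 12 libraries, and with a median SD of 0.317 once each library's mean over these members was subtracted. After that subtraction 31 of the 38 had an SD under 0.5, and the 7 above it were Myh4 (3.36), Myh2 (0.993), Myh1 (0.908), Mb (0.879), Ttn (0.772), Actn3 (0.548) and Mybpc2 (0.504). The spread within groups was wide. The median dispersion of the tested members was 0.289 against 0.0612 for all 18822 genes tested, and 90.9% of genes lay below the members' median.

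Vehicle-treated KO skin held less Myh4 than WT skin, while Myh1 stayed high. Myh4, the fastest of the adult isoforms (chr11:67238029-67260446, plus strand), was at 68.3, 1119 and 1126 CPM in WT and at 15.8, 0.241 and 0.484 CPM in KO. All 3 KO libraries lay below the lowest WT library, which itself lay far below the other WT libraries. The fall was 7.13 ± 1.95 on the log2 scale (SE, n = 3 per group; edgeR adjusted p = 0.0488), and it ran from -11.0 to -6.05 over 22 alternative settings, of which 10 kept the call (adjusted p from 0.000102 to 0.13). KO replicate 1 held most of the Myh4 left in KO, and without it the difference was -11.0. With Y-linked transcripts as a covariate Myh4 was not called (-9.5, edgeR adjusted p = 0.0555). Myh1 (chr11:67200052-67224575, plus strand) was at 1432, 359.1 and 637.5 CPM in WT and at 1895, 602.1 and 922.4 CPM in KO, and the groups overlapped (log2 difference 0.49 ± 0.65, edgeR adjusted p = 0.687).

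Tnnc1, the troponin C of slow and cardiac muscle, was the other member that fell in KO. It was at 0.672, 0.737 and 0.638 CPM in WT and at 0.0851, 0.161 and 0.264 CPM in KO, levels that rest on 2 to 21 counts per library. It fell by 1.98 ± 0.48 on the log2 scale (edgeR adjusted p = 0.0339), and 13 of 22 alternatives kept the call. With these, 2 of 41 tested members were called against a background of 8.18% of all 18822 genes (1540).

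In all, 38 of the 41 differences pointed down. The median log2 difference over the tested members was -0.95, against 0.01 over all genes. In 18 of the 41 every KO library lay below every WT library, against 19.9% of all genes. Smpx, a small protein of striated muscle, was at 28.2, 41.3 and 45.4 CPM in WT and at 12.5, 3.7 and 8.15 CPM in KO (log2 difference -2.24 ± 0.69, edgeR adjusted p = 0.0708). Actn3, the alpha-actinin of fast Z-discs, had a difference of -2.10 ± 0.77 (edgeR adjusted p = 0.114). EdgeR on only the 6 libraries compared called 6 members lower, Smpx, Actn3, Actn2 and Myl1 besides Myh4 and Tnnc1, against 15.9% of all genes, and DESeq2 on the same 6 called 14 (34.1%) lower against 25.6%. The largest positive differences, besides Myh1, were Tnni1 at 1.56 ± 0.74 (edgeR adjusted p = 0.212) and Mb at 0.74 ± 0.48 (edgeR adjusted p = 0.368).

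**Figure D2:**
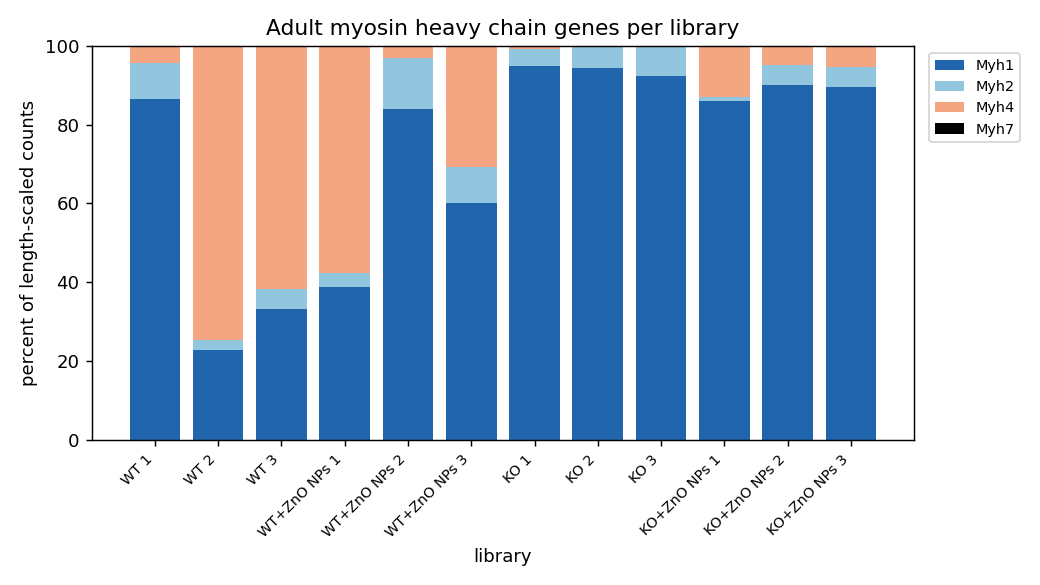
Bars give, per library, the percent of length-scaled counts of the adult myosin heavy chain genes Myh1, Myh2, Myh4 and Myh7. Myh4 takes 74.6% in WT 2 and 61.7% in WT 3 but 4.36% in WT 1, and under 1% in all 3 KO libraries; Myh7 is too rare to be seen.

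The makeup of fast myosin therefore differed between libraries of the same group as well as between groups. Myh4 took 4.36%, 74.6% and 61.7% of the length-scaled myosin heavy chain counts in WT and 57.7%, 2.99% and 30.7% in the WT+ZnO NPs-labelled libraries. It took 0.835%, 0.0399% and 0.0512% in KO, and 12.8%, 4.92% and 5.41% in KO+ZnO NPs. Myh1 made up most of the remainder, at 22.7% or more, and Myh2, the isoform of fast oxidative fibres, between 1.05% and 12.9%. The 3 genes share 18.9% to 25.4% of their exonic 50-base words with other genes, mostly with each other, so reads in those stretches could have been counted to a neighbour or dropped. This share was looked at after Myh4 had stood out and carries no test.

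Myh2 was lowest in KO+ZnO NPs replicate 1, at 11.9 CPM, and stood at 235.6 and 290.5 CPM in the other libraries of that group. It was at 169.5, 48.7 and 114.1 CPM in WT, at 283.7, 289.0 and 369.4 CPM in the WT+ZnO NPs-labelled libraries, and at 93.8, 40.3 and 85.7 CPM in KO. It was called in none of the 5 comparisons by edgeR or DESeq2 on all 12 libraries, and both tools on only the 6 libraries compared called it higher in the WT+ZnO NPs-labelled libraries than in WT. Without KO+ZnO NPs replicate 1, edgeR called Myh2 higher in that comparison and in KO+ZnO NPs against KO, where 42.6% and 16.4% of all genes were called.

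In skin labelled WT+ZnO NPs, myoglobin, titin and slow troponin I were higher than in WT skin. Mb, which stores oxygen in muscle (chr15:77015487-77050670, minus strand), was at 68.2, 36.8 and 63.9 CPM in WT and at 461.1, 268.7 and 273.1 CPM in the WT+ZnO NPs-labelled libraries. Its lowest treated value was above the highest WT value, and the rise was 2.57 ± 0.51 on the log2 scale (edgeR adjusted p = 0.00258). Over 23 alternatives it ran from 1.98 to 2.73 and was called under 22.

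Ttn, the giant spring of the sarcomere (chr2:76703980-76982547, minus strand), was at 196.0, 160.7 and 178.9 CPM in WT and at 1917, 760.6 and 875.9 CPM in the WT+ZnO NPs-labelled libraries. The groups did not overlap, and the rise was 2.73 ± 0.77 (edgeR adjusted p = 0.016). It was called under 20 of 23 alternatives, with adjusted p up to 0.0577. Tnni1 was at 0.378, 0.176 and 0.638 CPM in WT and at 1.52, 4.11 and 3.4 CPM in the WT+ZnO NPs-labelled libraries, a rise of 2.92 ± 0.75 (edgeR adjusted p = 0.00994) that was called under 21 of 22 alternatives. With Y-linked transcripts as a covariate Ttn alone was called, against 20.8% of all genes, and Mb and Tnni1 had adjusted p of 0.0552 and 0.202.

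These were the 3 members called of 41, where the background was 43.0% of all genes (8085 of 18822). DESeq2 on all 12 libraries called 6 members, against 47.7% of all genes. On only the 6 libraries compared, edgeR called 12 (29.3%) against 49.0%, and DESeq2 called 23 (56.1%) against 51.4%, so the share of members called lay below or above that of all genes with the tool and the libraries fitted. Of the 41 differences 40 were positive, with a median of 1.10 on the log2 scale against 0.06 over all genes, and in 13 members every WT+ZnO NPs-labelled library lay above every WT library, against 30.1% of all genes. Replicate 2 of that label lay near the WT libraries for most members. Ckm, the creatine kinase of muscle, was at 381.4, 548.2 and 608.8 CPM in WT and at 1898, 318.9 and 760.5 CPM in the WT+ZnO NPs-labelled libraries (0.95 ± 0.69, edgeR adjusted p = 0.285). Tnnc1 had the only negative difference, -0.93 ± 0.44 (edgeR adjusted p = 0.115).

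**Figure D3:**
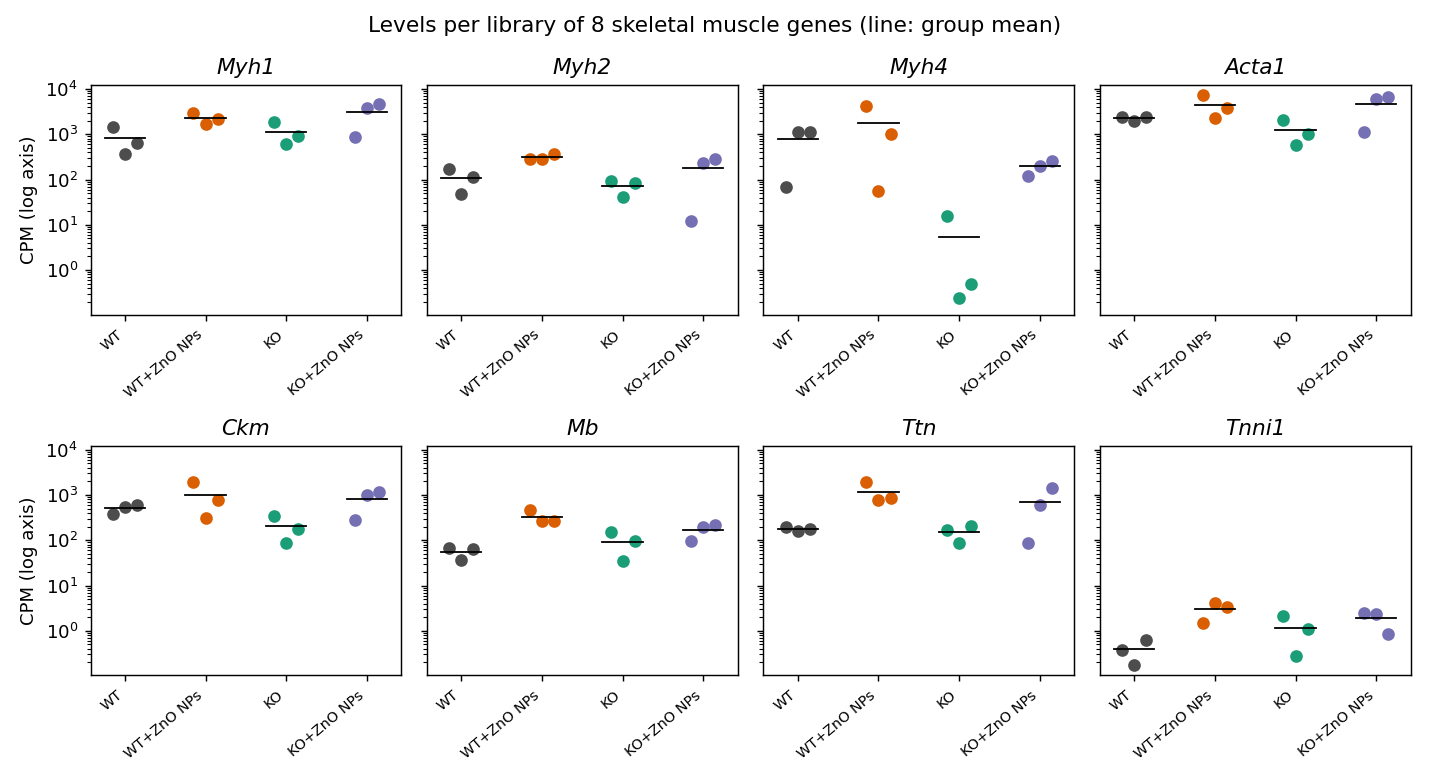
Points give CPM per library on a log axis for 8 genes in the 4 groups, and lines give the mean of 3 libraries. Mb, Ttn and Tnni1 do not overlap between WT and the WT+ZnO NPs-labelled libraries, Acta1 and Ckm do, and Myh4 spans from 0.241 to 4126 CPM.

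As counts relative to Acta1 in the same library, Ttn was at 0.0813, 0.0808 and 0.0724 in WT and at 0.264, 0.328 and 0.226 in the WT+ZnO NPs-labelled libraries. Mb relative to Acta1 was at 0.0283, 0.0185 and 0.0259 in WT and at 0.0635, 0.116 and 0.0703 in the WT+ZnO NPs-labelled libraries. In KO both ratios were also above every WT value, Mb at 0.0724, 0.0585 and 0.0945 and Ttn at 0.0842, 0.147 and 0.196. In KO+ZnO NPs the Mb ratio was 0.0882, 0.0328 and 0.0316, and the Ttn ratio was 0.0785, 0.101 and 0.206, with replicate 1 inside the WT range of Ttn. Myh1 relative to Acta1 ran from 0.18 to 0.594 in WT and from 0.884 to 1.02 in KO, so these 2 genes were not alone in departing from Acta1. The ratios were chosen after their values were seen.

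A fit chosen after seeing the data took the mean log2 CPM of the 38 abundant members as a covariate. That mean holds these genes' own values, Mb and Ttn among them, and so centres the members near 0, and a member's sign in this fit is relative to the rest of the set. Mb (1.98 ± 0.33, edgeR adjusted p = 0.00176), Ttn (1.62 ± 0.44, adjusted p = 0.0163) and Tnni1 (2.97 ± 0.80, adjusted p = 0.0168) were again called higher in the WT+ZnO NPs-labelled libraries than in WT, and Ldb3, a Z-disc adaptor, was called lower (-0.60 ± 0.16, edgeR adjusted p = 0.0159). These were 4 of 41 members against 37.9% of all genes in that fit. For KO against WT it called Smpx (-1.10 ± 0.25, edgeR adjusted p = 0.0413), 1 of 41 against 3.61% of all genes.

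In KO skin given ZnO NPs, edgeR called 4 of 41 tested members higher than in vehicle-treated KO skin, against 14.7% of all genes. These were the fast light chains Myl1 and Mylpf, fast Actn3 and slow Tnnc1, while all 41 differences were positive. Myl1 was at 199.9, 72.0 and 153.3 CPM in KO and at 237.9, 796.2 and 1447 CPM in KO+ZnO NPs, so the groups did not overlap (2.54 ± 0.70 on the log2 scale, edgeR adjusted p = 0.0365). Mylpf was at 277.5, 85.8 and 169.0 CPM in KO and at 281.3, 936.2 and 1476 CPM in KO+ZnO NPs (2.34 ± 0.66, edgeR adjusted p = 0.04). Replicate 1 of KO+ZnO NPs lay just above the highest KO library for both. Each was called under 12 of 23 alternatives, with log2 differences from 0.594 to 2.99 for Myl1 and from 0.554 to 2.82 for Mylpf.

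Actn3 was at 70.8, 25.9 and 30.9 CPM in KO and at 42.6, 287.0 and 450.9 CPM in KO+ZnO NPs, which overlapped at replicate 1 (2.61 ± 0.78, edgeR adjusted p = 0.0479). It was called under 9 of 23 alternatives, which gave 0.491 to 3.2. Tnnc1 was at 0.524, 0.958 and 0.653 CPM in KO+ZnO NPs, all above the KO libraries (2.03 ± 0.49, edgeR adjusted p = 0.0233), and 16 of 22 alternatives kept the call. With Y-linked transcripts as a covariate Tnnc1 was the only member called, against 12.9% of all genes. Myh4 had the largest difference, from the KO levels above to 122.3, 199.3 and 262.6 CPM, without overlap, and was not called (5.14 ± 1.78, edgeR adjusted p = 0.0739). Over 22 alternatives it ran from 4.06 to 9.06 and was called under 3, which were both DESeq2 fits and the fit without KO replicate 1.

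These were 4 of 41 members, 9.76%, against a background of 14.7% of all genes (2759). All 41 differences were positive, with a median of 1.61 on the log2 scale against 0.01 over all genes, and in 5 members every KO+ZnO NPs library lay above every KO library, against 17.0% of all genes. Acta1 had a difference of 1.91 ± 0.67 (edgeR adjusted p = 0.0756), and Ckm, at 350.8, 88.0 and 179.0 CPM in KO and 287.6, 997.2 and 1195 CPM in KO+ZnO NPs, had an edgeR adjusted p of 0.079.

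The count of calls in this comparison turned on single libraries and on the tool. Without KO+ZnO NPs replicate 1 it was 26 of 42 members, against 16.4% of all genes, without KO replicate 2 it was 0 against 2.34%, and without KO+ZnO NPs replicate 2 it was 0 against 7.62%. DESeq2 on all 12 libraries called 26 of 41 members, all higher, against 23.3% of all genes, and edgeR on the 6 libraries compared called 0 against 3.24%. With the members' mean level as a covariate no gene of the 18822 was called (0.0%), members included. That mean itself differs between these groups, so the fit also takes out part of the group difference. In it 3300 genes had an unadjusted edgeR p below 0.05.

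**Figure D4:**
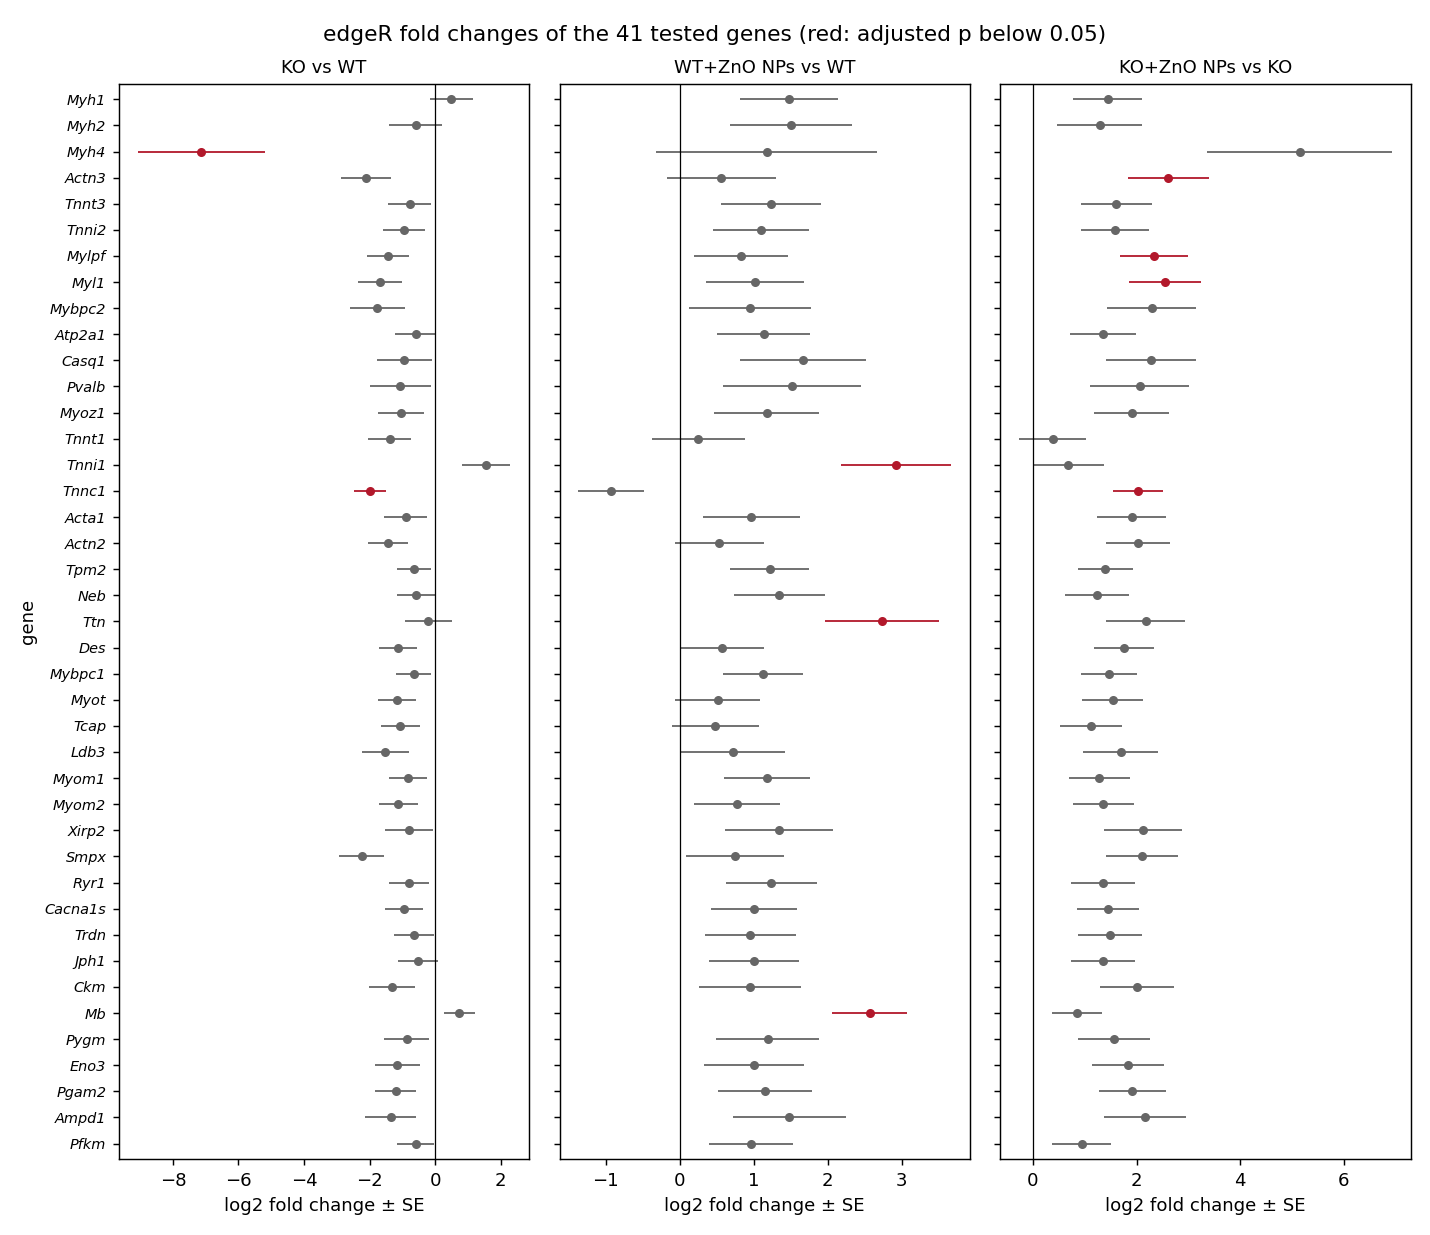
Points give the edgeR log2 fold change of each of the 41 tested genes and bars its SE, with 3 libraries per group; red marks an adjusted p below 0.05. Nearly all points lie left of 0 for KO against WT and right of 0 for both ZnO NPs comparisons, and few are red.

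Between KO+ZnO NPs and the WT+ZnO NPs-labelled libraries no member was called, and none had an unadjusted p below 0.05 in edgeR. The background was 3.28% of all genes (618). DESeq2 on all 12 libraries also called 0 of 41, against 13.1% of all genes. The median log2 difference was -0.42, against 0.04 over all genes. The largest differences were Myh4 at -3.16 ± 1.61 (edgeR adjusted p = 0.251), Tnnt1 at -1.26 ± 0.64 (adjusted p = 0.255) and Mb at -0.98 ± 0.48 (adjusted p = 0.238). On the positive side stood Tnnc1 at 0.98 ± 0.45 (edgeR adjusted p = 0.206), Myh1 at 0.46 ± 0.65 (adjusted p = 0.696) and Mylpf at 0.08 ± 0.63 (adjusted p = 0.955), whose sign turned under 5 of 23 alternatives.

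Tnnt1 was at 2.18, 2.14 and 8.37 CPM in WT, at 2.96, 5.03 and 7.08 CPM in the WT+ZnO NPs-labelled libraries, at 1.36, 0.924 and 2.55 CPM in KO and at 1.53, 3.58 and 1.22 CPM in KO+ZnO NPs. Every pair of groups overlapped except the WT+ZnO NPs-labelled libraries against KO. Tnni1 was at 2.13, 0.281 and 1.1 CPM in KO and at 2.44, 2.32 and 0.871 CPM in KO+ZnO NPs, which overlapped.

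The interaction asks whether the ZnO NPs difference was the same in both genotypes. In the libraries labelled WT that difference cannot be told apart from one of sex, so the interaction cannot be either. Tnnc1 was the only member called, of 41 tested, against a background of 8.68% of all genes (1633). Its ZnO NPs difference was negative in the libraries labelled WT and positive in KO, so the interaction was 2.96 ± 0.66 on the log2 scale (edgeR adjusted p = 0.0256). It was called under 13 of 20 alternatives and was not called with Y-linked transcripts as a covariate (2.19 ± 0.76, adjusted p = 0.186). Mb had an interaction of -1.72 ± 0.68 (edgeR adjusted p = 0.133), Tnni1 of -2.24 ± 1.00 (adjusted p = 0.176) and Ttn of -0.56 ± 1.03 (adjusted p = 0.767). The largest positive values besides Tnnc1 were Myh4 at 3.97 ± 2.19 (edgeR adjusted p = 0.267) and Actn3 at 2.05 ± 1.05 (adjusted p = 0.235). With the members' mean level as a covariate Mylpf (0.88 ± 0.20, edgeR adjusted p = 0.0318) and Mb (-2.03 ± 0.44, adjusted p = 0.0266) were called beside Tnnc1, 3 of 41 members against 7.86% of all genes, and the covariate holds the values of Mylpf and Mb.

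By role, the remaining members followed the common pattern. The calls by role below are those of the fits on all 12 libraries unless fewer are named. Of the 13 tested fast genes edgeR called none between the WT+ZnO NPs-labelled libraries and WT, against 43.0% of all genes (1 had an unadjusted p below 0.05, and DESeq2 called Myh1), with a median log2 difference of 1.17. In KO+ZnO NPs against KO 3 of the 13 were called higher (23.1%), against 14.7% of all genes, with a median of 2.06, and DESeq2 called 9 of the 13, against 23.3%. Atp2a1, the calcium pump of fast fibres, was at 745.2, 895.2 and 855.7 CPM in WT, at 3029, 788.3 and 1661 CPM in the WT+ZnO NPs-labelled libraries, at 959.0, 284.5 and 422.0 CPM in KO and at 434.9, 1620 and 2207 CPM in KO+ZnO NPs.

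Tnnt3 was at 701.9, 631.8 and 808.7 CPM in WT, at 3130, 681.3 and 1239 CPM in the WT+ZnO NPs-labelled libraries, at 688.8, 195.8 and 363.1 CPM in KO and at 371.9, 1344 and 2084 CPM in KO+ZnO NPs. Tnni2 was at 482.7, 448.3 and 519.0 CPM, at 1932, 401.5 and 771.4 CPM, at 426.8, 123.7 and 201.7 CPM and at 265.0, 756.1 and 1226 CPM in the same order of groups. Both troponin genes ranked the 3 libraries of the treated groups in the same order as Atp2a1 did. Mylpf was at 439.0, 438.6 and 557.5 CPM in WT and at 1473, 334.6 and 740.9 CPM in the WT+ZnO NPs-labelled libraries, and Myl1 at 373.5, 429.4 and 566.8 CPM and at 1679, 332.7 and 763.1 CPM.

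The slow light chains gave no test. Myl2 was at 0.042, 0.105 and 0.128 CPM in WT, at 0.04, 0.0914 and 0.672 CPM in the WT+ZnO NPs-labelled libraries, at 0.0851, 0 and 0.044 CPM in KO and at 0.131, 0.101 and 0.0871 CPM in KO+ZnO NPs. Myl3 ran from 0.08 to 0.712 CPM. Both were highest in replicate 3 labelled WT+ZnO NPs.

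The 4 calcium handling genes shared by both fibre types, Ryr1, Cacna1s, Trdn and Jph1, were called in no comparison by edgeR, with 2 of the 4 at an unadjusted p below 0.05 for KO+ZnO NPs against KO, where DESeq2 called Cacna1s and Trdn, against 23.3% of all genes. On only the 6 libraries compared, edgeR called Ryr1 and Cacna1s (49.0% of all genes), and DESeq2 all 4 (51.4%), higher in the WT+ZnO NPs-labelled libraries than in WT. Without KO+ZnO NPs replicate 1, edgeR called all 4 for KO+ZnO NPs against KO, against 16.4% of all genes. Ryr1, the calcium release channel, was at 148.7, 153.6 and 140.9 CPM in WT, at 537.0, 211.2 and 294.8 CPM in the WT+ZnO NPs-labelled libraries, at 129.8, 50.4 and 76.0 CPM in KO and at 50.5, 192.1 and 408.0 CPM in KO+ZnO NPs. The libraries labelled WT+ZnO NPs all lay above WT (1.24 ± 0.62 on the log2 scale, edgeR adjusted p = 0.127). Des, the intermediate filament that ties Z-discs together, was at 416.7, 456.4 and 457.5 CPM in WT, at 1098, 374.0 and 505.6 CPM in the WT+ZnO NPs-labelled libraries, at 321.9, 143.3 and 146.1 CPM in KO and at 196.1, 994.2 and 882.2 CPM in KO+ZnO NPs. In KO every Des value lay below WT (-1.12 ± 0.57, edgeR adjusted p = 0.246).

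Of the 7 energy genes edgeR called Mb alone, in the WT+ZnO NPs-labelled libraries against WT, where the background was 43.0% of all genes. The glycogen and glycolysis genes Pygm, Pfkm, Pgam2 and Eno3, the AMP deaminase gene Ampd1 and Ckm had no call in edgeR, while DESeq2 called Ckm, Pgam2, Eno3 and Ampd1 higher in KO+ZnO NPs than in KO, against 23.3% of all genes. The median log2 difference of the 7 was -1.15 for KO against WT, 1.15 for the WT+ZnO NPs-labelled libraries against WT and 1.84 for KO+ZnO NPs against KO. Of the 14 sarcomere and Z-disc genes edgeR called Ttn alone, in the same comparison as Mb, while on only the 6 libraries it called Mybpc1, Myom1, Neb, Tpm2 and Xirp2 there as well, against 49.0% of all genes. For KO+ZnO NPs against KO edgeR called 0 of the 14, of which 11 had an unadjusted p below 0.05, and DESeq2 called 10 of the 14 higher, against 23.3% of all genes. The medians of that list for the same comparisons were -0.98, 0.87 and 1.62. Neb, which sets thin filament length, was at 276.9, 282.7 and 259.6 CPM in WT and at 1044, 488.3 and 546.5 CPM in the WT+ZnO NPs-labelled libraries, without overlap (1.34 ± 0.61, edgeR adjusted p = 0.0998), and DESeq2 on all 12 libraries called it.

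The genes outside the set whose pattern was most like it were also muscle genes. Over the 12 libraries, Tmem38a had a Pearson correlation of 0.995 with the mean log2 CPM of the 41 tested members, Srl and Ank1 had 0.992, and Smyd1 and Hhatl had 0.99. Tmem38a, a cation channel of the sarcoplasmic reticulum, was at 90.2, 84.8 and 119.0 CPM in WT and at 324.9, 94.8 and 166.7 CPM in the WT+ZnO NPs-labelled libraries. These points share their libraries and the depth and tissue composition of each.

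Other muscle genes were read from lists that were chosen with earlier results of these data known. In KO against WT, 1 of 12 excitation and calcium genes fell, Sln, the small inhibitor of the calcium pump, at 28.0, 15.3 and 46.0 CPM in WT and 0.936, 2.37 and 2.25 CPM in KO (-4.00 ± 0.60 on the log2 scale, edgeR adjusted p = 0.00414). Of 14 further sarcomere genes Ankrd2, a stretch-responsive protein, fell (-2.95 ± 0.76, edgeR adjusted p = 0.0411), and of 10 further energy genes Fabp3, a fatty acid carrier, fell (-2.46 ± 0.50, edgeR adjusted p = 0.0166). None rose, and the 3 made up 5.66% of the 53 tested genes of the lists, against 8.18% of all genes. DESeq2 on all 12 libraries called 9 of the 53, against 16.4% of all genes. No call was made among 6 tested myogenic regulators, 3 tested embryonic or neonatal genes, 6 neuromuscular junction genes and 2 atrophy genes, where 2, 0, 0 and 0 had an unadjusted p below 0.05 in edgeR and DESeq2 called 2, 0, 0 and 0, against 16.4% of all genes.

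In KO+ZnO NPs against KO, edgeR called 6 of the 53 tested genes of these lists (11.3%), against 14.7% of all genes. DESeq2 on all 12 libraries called 20 of the 53, against 23.3% of all genes, so the share depended on the tool. Among the 14 further sarcomere genes 4 rose, Mybph (3.54 ± 0.95, edgeR adjusted p = 0.0336), Csrp3 (2.81 ± 0.77, adjusted p = 0.0357), Ankrd2 (2.64 ± 0.75, adjusted p = 0.0414) and Klhl40 (2.51 ± 0.70, adjusted p = 0.0387), and none fell. Csrp3 and Ankrd2 take part in stretch sensing at the Z-disc. Csrp3 was at 25.8, 12.1 and 22.1 CPM in KO and at 20.02, 296.6 and 105.4 CPM in KO+ZnO NPs, which overlapped at replicate 1. Sln rose as well (2.28 ± 0.57, edgeR adjusted p = 0.0269). Trim63, the muscle ubiquitin ligase of atrophy, was at 30.3, 13.9 and 12.7 CPM in KO and at 49.6, 159.1 and 62.4 CPM in KO+ZnO NPs, without overlap (2.25 ± 0.48, edgeR adjusted p = 0.0162). None of the 10 further energy genes, 6 myogenic regulators, 3 embryonic or neonatal genes and 6 junction genes was called by edgeR, where 4, 1, 0 and 1 had an unadjusted p below 0.05 and DESeq2 called 3, 1, 0 and 0, against 23.3% of all genes.

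In the WT+ZnO NPs-labelled libraries against WT, the calls in these lists were Myom3, an M-band protein (1.22 ± 0.35, edgeR adjusted p = 0.0171), Colq, the collagen tail of junctional acetylcholinesterase (1.41 ± 0.52, adjusted p = 0.0496), and Fbxo32, the other atrophy ligase (0.70 ± 0.19, adjusted p = 0.0131). All 3 were higher, and they made up 5.66% of the 53 tested genes, against 43.0% of all genes. In this comparison DESeq2 on all 12 libraries called 10 of the 53, against 47.7% of all genes. Of the 53 tested genes of these lists edgeR called none between KO+ZnO NPs and the WT+ZnO NPs-labelled libraries (7 at an unadjusted p below 0.05) or for the interaction (6 at an unadjusted p below 0.05), where 3.28% and 8.68% of all genes were called. DESeq2 called 3 and 5, against 13.1% and 17.1% of all genes.

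Markers of other cells moved between the groups too. The 5 cardiac markers summed to 2.46 to 14.8 CPM, with Myh6, Nppa and Myl7 at or near 0 in every library. The other 2, Tnnt2 and Tnni3, which are troponin subunits, rose in the WT+ZnO NPs-labelled libraries, where 43.0% of all genes were called. They stayed at or below 11.5 and 6.36 CPM. Tnnt2 rose in KO against WT too (2.01 ± 0.44, edgeR adjusted p = 0.0233), against 8.18% of all genes called. The 8 smooth muscle markers summed to 419.5 to 506.9 CPM in WT, 559.3 to 675.2 in the WT+ZnO NPs-labelled libraries, 373.2 to 428.2 in KO and 388.2 to 476.3 in KO+ZnO NPs. Of these 8, Cnn1 fell (-1.71 on the log2 scale) and Smtn rose (0.92) in KO against WT, where 8.18% of all genes were called, and Smtn (1.90) and Actg2 (1.04) rose in the WT+ZnO NPs-labelled libraries against WT. The 6 adipocyte markers summed to 5929 to 7929 CPM in WT, 1002 to 2307 in the WT+ZnO NPs-labelled libraries, 2645 to 4861 in KO and 1093 to 6121 in KO+ZnO NPs, and 4 of the 6 fell in the WT+ZnO NPs-labelled libraries, where all 4 endothelial markers fell as well, against 43.0% of all genes called in that comparison.

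The 6 dermal fibroblast markers summed to 7049 to 13900 CPM in WT, 7678 to 33420 in the WT+ZnO NPs-labelled libraries, 23170 to 37280 in KO and 15750 to 21470 in KO+ZnO NPs. The 6 keratinocyte markers ran from 6736 to 9723 CPM in WT, 6716 to 11140 in the WT+ZnO NPs-labelled libraries, 12380 to 21950 in KO and 11310 to 15790 in KO+ZnO NPs. These sums hide calls in both directions for the WT+ZnO NPs-labelled libraries against WT, where 43.0% of all genes were called. Krt5, Krt15 and Trp63 rose and Krt1 (-2.12) and Krt10 (-2.31) fell on the log2 scale, and Col1a1 (1.69) rose while Dcn (-2.02) and Pdgfra (-2.17) fell. Trp63 was also called higher in KO than in WT (1.17), where 8.18% of all genes were called. Pdgfra was called lower in KO+ZnO NPs than in KO (-1.28), where 14.7% were. The 4 endothelial markers ran from 470.7 to 501.5, from 85.7 to 201.5, from 282.5 to 343.6 and from 192.7 to 618.2 CPM in that order, and the 4 Schwann cell markers from 212.5 to 318.5, from 194.6 to 696.3, from 149.2 to 182.9 and from 159.6 to 597.6 CPM. The Schwann cell sum was highest in replicate 1 labelled WT+ZnO NPs and in KO+ZnO NPs replicate 3, the libraries with the most muscle transcript. The part of these cells in the muscle differences was not tested.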

How the data were processed

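Whole-skin RNA was sequenced from 12 mice, 3 per group. The counts are whole reads per gene as the authors deposited them. The processing notes name HISAT2 2.0.5 and mm10, whereas the methods name STAR and HTSeq, and whether counting used strand is not given in the sources used here. All 52636 rows named a gene. The members and lists were chosen with earlier results of these data known.

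Genes were filtered with filterByExpr, scaled by TMM and tested with edgeR 4.0.16 (R 4.3.3) quasi-likelihood fits on all 12 libraries, with Benjamini-Hochberg adjustment over 18822 genes and a threshold of 0.05. SEs are the fold change over the root of F. CPM uses TMM-scaled library sizes, and log2 CPM a prior count of 2. Exon lengths come from GENCODE M21. Alternatives used DESeq2 1.42.0, other scalings and filters, covariates and left-out libraries. The fitting code was also run on simulated counts with the same dispersion for every gene, lower than the members' median. That run does not measure how reliable the members' calls are. Myosin shares were compared by exact permutation (scipy).

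Named were called members, the 3 largest rises and falls per comparison, preset isoform pairs and core genes, and the 5 non-members most correlated with the members' mean. Genes singled out beyond these (Neb, and the Mb and Ttn ratios) were chosen after their values were seen.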

Additional observations from a re-analysis of the deposited data

Results flagged for a closer look

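Tnnc1 was singled out because its interaction of genotype and ZnO NPs was called. In the libraries labelled WT the ZnO NPs difference cannot be told apart from one of sex, so genotype and sex are mixed in this value. The interaction was 2.96 ± 0.66 on the log2 scale (edgeR adjusted p = 0.0256), and over 20 alternatives it ran from 2.19 to 3.45 with adjusted p from 0.00535 to 0.186. The level was under 1 CPM in every library.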

How the results depend on the processing

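The cause of the changes below was not tested. Percentages give the share of all genes called in the same fit. For KO against WT, where 2 members were called, DESeq2 called 5 on all 12 libraries (16.4%) and 14 on the 6 compared (25.6%), edgeR on those 6 called 6 (15.9%), no filter on low counts left 1 (4.21%), and a minimum of 10 counts in every library left 0 (9.7%), a filter that also removed Myh4 and Tnnc1 from the test. For the WT+ZnO NPs-labelled libraries against WT (3 called) DESeq2 gave 6 (47.7%) and 23 (51.4%) and edgeR on 6 libraries gave 12 (49.0%). For KO+ZnO NPs against KO (4 called) they gave 26 (23.3%), 19 (16.8%) and 0 (3.24%). The interaction (1 called) fell to 0 under the 10-count filter (11.7%). With Y-linked transcripts as a covariate the counts in these 4 comparisons were 0 (5.08%), 1 (20.8%), 1 (12.9%) and 0 (0.669%), with fewer of all genes called too. With the members' mean level as a covariate, chosen after seeing the data, they were 1 (3.61%), 4 (37.9%), 0 (0.0%) and 3 (7.86%). KO+ZnO NPs against the WT+ZnO NPs-labelled libraries had 0 calls under each alternative run, of which edgeR on the 6 libraries called none of all genes, and the Y-linked covariate and the fit without replicate 3 labelled WT+ZnO NPs 1 gene each.

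Leaving out single libraries gave 0 to 3 calls for KO against WT (0 without any 1 of the WT libraries or without KO replicate 2; 1.94% to 10.6%), 2 to 10 for the WT+ZnO NPs-labelled libraries against WT (30.7% to 46.7%), 0 to 26 for KO+ZnO NPs against KO (2.34% to 16.4%) and 0 to 1 for the interaction (2.38% to 8.45%). The 10 (against 42.6%) and the 26 (16.4%) came without KO+ZnO NPs replicate 1. Without KO replicate 2 the interaction's call was Mb, lower, and not Tnnc1, and the interaction was at 0 without any 1 of the WT libraries, replicate 3 labelled WT+ZnO NPs or KO replicate 1. The slow share difference ran from -0.000623 to 0.00263 percentage points for KO minus WT and from -0.000623 to 0.000391 for the WT+ZnO NPs label minus WT, all resting on under 4 counts of Myh7 in a library. Myh1 in KO against WT ran from -0.0888 to 1.19. Mylpf in KO+ZnO NPs against the WT+ZnO NPs label ran from -0.49 to 0.741, and was -0.0691 with library size only and -0.0617 with the Y-linked covariate.

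Replicate numbers did not pair the libraries. Deviations of libraries sharing a number correlated at -0.343 to 0.429, with 4 of 18 pairs over 0.1. The replicate block gave 0 (6.58%), 3 (42.9%), 3 (13.8%), 0 (3.33%) and 1 (7.59%) calls in the 5 comparisons. Scaling by library size only moved the median of all genes from 0.06 to 0.16 for the WT+ZnO NPs label against WT and from 0.04 to -0.11 for KO+ZnO NPs against that label.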

Other observations

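Of 18 genes listed as myogenic regulators, embryonic or neonatal isoforms and neuromuscular junction genes, 7 were highest in replicate 2 labelled WT+ZnO NPs and 11 in other libraries. Chrng, the acetylcholine receptor subunit of fetal muscle, was at 10.4 CPM there and at most 0.0804 CPM in the other 11. In that library Myog, a regulator of muscle differentiation, was at 20.4 CPM against at most 8.64, Myod1 at 12.2 against at most 6.36, Myh8, the neonatal myosin heavy chain, at 22.8 against at most 8.08, and Chrna1 at 16.5 against at most 7.6. The same library had the highest Col1a1 level, 13290 CPM against at most 10830, and the lowest Myh4 share of its label, 2.99%. Other genes of these lists were not high there, among them Actc1 at 0.274 CPM against 10.6 in replicate 1 of the same label, Myh3 at 0.0914 against up to 0.554, Myf5 at 0.228 against up to 0.88, Pax7 at 0.365 against up to 1.2 and Myf6 at 21.8 against up to 32.0. These values come from 1 library, were noticed after seeing the data and carry no test.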
